A study of Neurospora crassa with 16 samples.

Results

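The comparison described here is the step from day 1 to day 3 of culture in the stk-12 mutant of the filamentous fungus Neurospora crassa. It set the 2 libraries of the mutant at day 3 against the 2 at day 1, which are 4 of the 16 libraries of the study, and covered the 8983 genes with enough reads for a test out of 9730 in the table. RNA was sequenced from mycelia of a wild type (WT) and of a strain labelled △stk-12, a deletion of stk-12, which codes for a serine/threonine kinase. The 2 strains were started from conidia in Vogel's salts with 2% Avicel, a crystalline cellulose, as carbon source, and were kept in constant light at 25 °C as a batch culture. Each strain was harvested at 12 h and at days 1, 3 and 5, with 2 libraries per harvest. The question followed here is what else changes in the mutant between the days while its cellulase transcripts stay high. The WT libraries of the same days served for comparison.

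N. crassa degrades cellulose with secreted enzymes. Cellobiohydrolases release cellobiose from chain ends, endoglucanases cut within chains, and lytic polysaccharide monooxygenases (the GH61 family), which are copper enzymes, cleave the crystalline surface by oxidation with electrons from cellobiose dehydrogenase. The genes are switched on by the transcription factors CLR-1 and CLR-2 when cellodextrins are present, and CRE-1 represses them when glucose is available. Copper and iron enter a fungal cell through plasma membrane transporters after reduction by metalloreductases.

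Between 16589245 and 20993981 reads were assigned to genes in the 4 mutant libraries. Levels are given as CPM, read counts relative to library sizes after TMM scaling, which corrects for differences in library composition. A fold change is on the log2 scale, day 3 minus day 1, with its standard error (SE), and values in parentheses after a gene are log2 fold changes unless named otherwise. A gene is said to have risen or fallen where the adjusted p of edgeR's quasi-likelihood test over all genes was below 0.05. The labels do not say that replicates were separate cultures, so the p-values measure the spread between these libraries, which may be technical. The replicate counts differed by more than sampling noise, with a chi-square per degree of freedom of 17.5 at day 1 and 9.01 at day 3. The libraries are bulk samples, in which fewer cells of a type and less RNA per cell cannot be told apart.

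The targeted gene stk-12 was not at 0 in the libraries labelled as its deletion. It had 155 and 161 reads at day 1 and 761 and 706 at day 3, or 10.01 and 9.26 CPM at day 1 and 37.7 and 33.9 CPM at day 3. Both day 3 libraries lay above both day 1 libraries (log2 fold change 1.90 ± 0.0862, edgeR adjusted p = 1.06e-11). WT went from 39.3 ± 1.55 to 102 ± 3.17 CPM (mean ± SD, n = 2). The position of these reads within stk-12 is not visible in counts per gene. Mating type transcripts differed between the strains too, since matA-1, matA-2 and matA-3 had 0 reads in the mutant, so a difference between the strains in a step cannot be told apart from a difference between these strain backgrounds.

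Of the 8983 genes tested, 6522 (72.6%) changed in the mutant between day 1 and day 3. Of these, 3194 (35.6%) rose and 3328 (37%) fell. The median log2 fold change over all genes was 0.00, and the middle 90% of genes ran from -1.38 to 2.43. At least 2-fold changes were fewer: 1564 genes (17.4%) rose and 918 (10.2%) fell that far. The distribution was therefore wider above 0 than below it. Counts of list members called are to be read against these shares, since most genes passed the test. With library totals in place of TMM, the median over all genes was 0.11, so log2 fold changes within about 0.1 of 0 depend on the scaling.

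**Figure D1:**
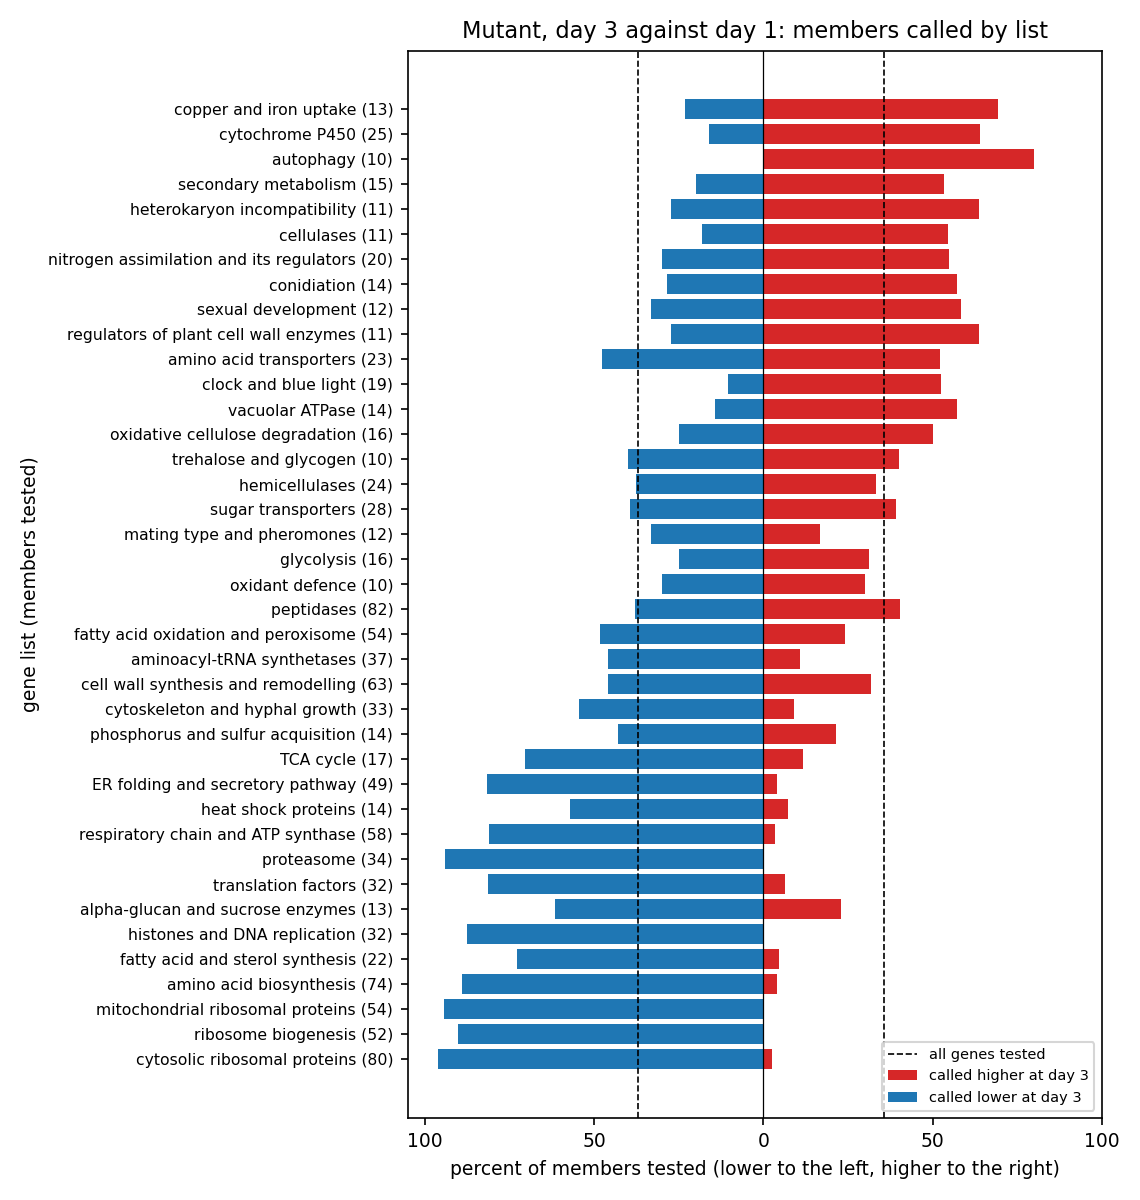
Percent of the tested members of each gene list with at least 10 tested members that were called higher (red, to the right) or lower (blue, to the left) at day 3 than at day 1 in the mutant; dashed lines mark 35.6% and 37% of all genes tested. Lists of ribosomal proteins, ribosome biogenesis and amino acid biosynthesis stand at the bottom with nearly all members lower, and copper and iron uptake stands at the top by its median.

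The major cellulase genes cbh-1, gh6-2 and gh6-3 kept their high transcript levels over the step. Of 11 cellulases tested, 6 rose and 2 fell (median log2 fold change 0.51), where the median over all genes was 0.00. The main cellobiohydrolase gene cbh-1 stood at 22339 and 20636 CPM at day 1 and 27904 and 33267 CPM at day 3, and by mean RPKM it had rank 5 of all genes at day 1 and rank 2 at day 3. Its day 3 libraries both lay above its day 1 libraries, and it rose (log2 fold change 0.51 ± 0.111, edgeR adjusted p = 0.000601). In WT the same gene fell, with a log2 fold change of -1.63, and the difference between the steps was 2.14 (adjusted p = 1.30e-08). The second cellobiohydrolase gene gh6-2 stood at 14397 and 13364 CPM at day 1 and 12354 and 13674 CPM at day 3 (log2 fold change -0.09 ± 0.103, adjusted p = 0.428). These values overlapped between the days. The exoglucanase gene gh6-3 stood at 10599 and 9063 CPM at day 1 and 10370.2 and 12457 CPM at day 3, also with overlap, at 0.22 ± 0.106 (adjusted p = 0.0798). It passed the test with library totals (adjusted p = 0.00337), with DESeq2 size factors (0.0483) or DESeq2's Wald test (0.0296), and without replicate 1 of day 1 (0.0376) or of day 3 (0.0111). In WT, gh6-2 and gh6-3 fell by 2.19 and 4.18 on the log2 scale.

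The endoglucanases moved in different directions. The endoglucanase gene gh7-1 rose, from 1261 and 1072 to 2795 and 3079 CPM (log2 fold change 1.33 ± 0.0951). Its 2 days did not overlap. The endoglucanase gene gh5-1 fell from 5217 and 4779.6 to 3477 and 3964 CPM (-0.43 ± 0.105), and gh45-1 fell by 0.38. These 2 were the members that fell: without replicate 1 of day 3 neither passed (adjusted p = 0.0507 and 0.172), and without replicate 1 of day 1 gh45-1 did not (0.0669). A small rise of gh7-2 (0.29 ± 0.101) was lost without replicate 2 of day 1 (adjusted p = 0.201) or of day 3 (0.152). The steepest members were low at day 1. The exoglucanase gene gh7-4 had 6.84 and 5.40 CPM at day 1 and 268 and 303 CPM at day 3, a log2 fold change of 5.55 ± 0.130, and gh6-1 had 0.968 and 0.805 CPM at day 1 and 30.1 and 37.7 CPM at day 3 (5.25 ± 0.290). Both were clearly separated between the days. In WT gh7-4 rose as well, by 3.66, and gh6-1 did not pass the test (0.56). As a share of all reads in genes, the cellulase list took 5.14 and 4.74% in the 2 day 1 libraries and 5.998 and 6.73% at day 3.

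**Figure D2:**
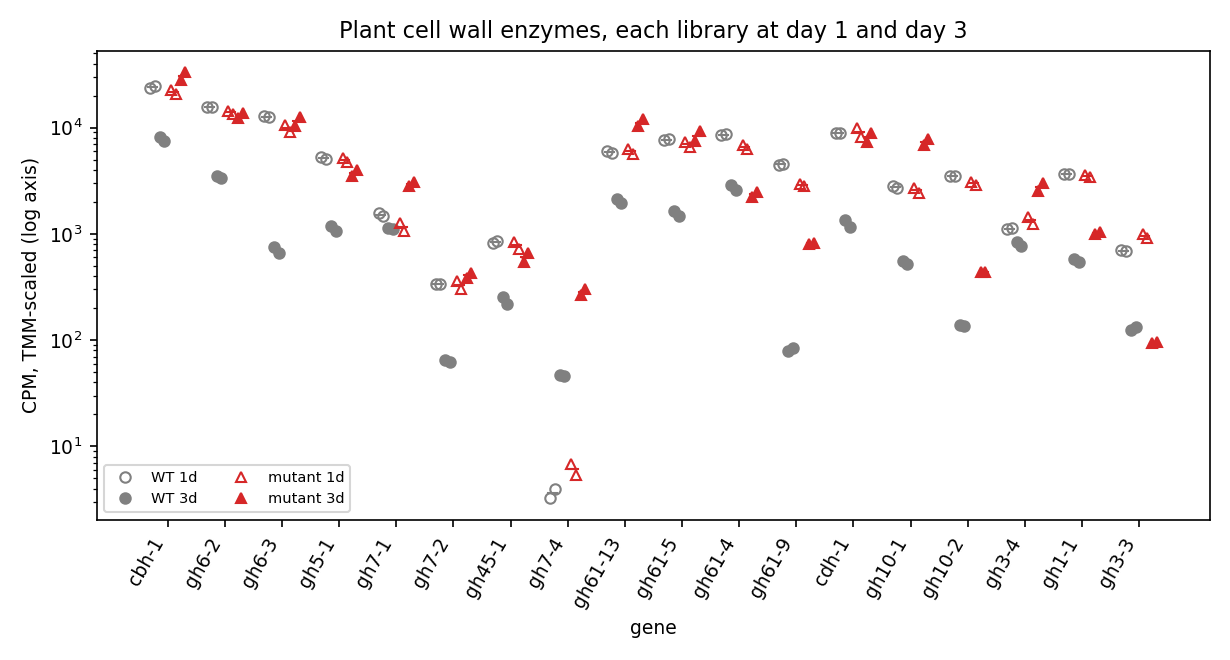
CPM (log axis) of 18 plant cell wall enzyme genes in each library at day 1 (open symbols) and day 3 (filled symbols), WT as grey circles and mutant as red triangles; short lines are means of 2 libraries. The mutant triangles of cbh-1, gh6-2, gh6-3 and cdh-1 lie close together on both days, while the WT day 3 circles of these genes lie lower; gh10-2, gh1-1 and gh3-3 lie lower at day 3 in both strains.

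The oxidative arm of cellulose degradation moved in both directions. Of 16 tested, 8 rose and 4 fell (median log2 fold change 0.07). The monooxygenase gene gh61-13 rose, at 6308 and 5632 CPM at day 1 and 10258 and 12000.3 CPM at day 3 (log2 fold change 0.90 ± 0.0979, edgeR adjusted p = 4.16e-07). Per length it had rank 3 at day 1 and rank 1 at day 3, with a mean RPKM of 7829 and 15670. Among members that fell, gh61-4 went from 6855 and 6323 to 2234 and 2457 CPM (-1.49 ± 0.117). A second, gh61-9, went from 2893 to 814 CPM in the mean (-1.83 ± 0.0776). The abundant gh61-5 rose by 0.26, a call lost in a fit of the 4 mutant libraries alone (adjusted p = 0.0602) and without replicate 2 of day 1 (0.223) or of day 3 (0.502). The cellobiose dehydrogenase gene cdh-1 stood at 9878 and 8148 CPM at day 1 and 7333 and 8795 CPM at day 3 and did not pass the test (-0.16 ± 0.112, adjusted p = 0.21). Its homologue cdh-2 and the monooxygenase gene gh61-8 rose from low levels, from 7.27 to 57.9 CPM and from 7.26 to 218 CPM (log2 fold changes 2.996 and 4.92). In WT these 2 genes rose by 1.13 and 2.22. Both gh61-6 (1.73) and gh61-7 (1.05), chosen after values were seen, rose as well.

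The hemicellulases held large changes in both directions, though the shares that rose and fell lay near those of all genes, 35.6% and 37%. Of 24 tested, 8 rose, 9 fell and 7 were not called (median log2 fold change 0.05), and all 8 that rose did so by at least 2-fold. The xylanase gene gh10-1 rose, from 2720.3 and 2417 to 6791 and 7756 CPM (log2 fold change 1.502 ± 0.142), where WT fell by 2.35. The xylanase gene gh10-2 did the reverse, from 3088 and 2887 to 436 and 439 CPM (-2.77 ± 0.0978). Thus 2 xylanases of 1 family moved in opposite directions. The acetylxylan esterase gene ce5-3 rose from 72.2 to 872 CPM (3.60 ± 0.147), and the GH62 gene gh62-1 rose from 1.32 to 26.4 CPM (4.33). The GH115 gene gh115-1 fell from 388 to 68.6 CPM (-2.50 ± 0.105). Outside the naming rule, the xylanase gene gh11-2 had 8243 and 7736 CPM at day 1 and 7127 and 8809 CPM at day 3 and a log2 fold change of -0.00 ± 0.119 (adjusted p = 0.982), while gh11-1 (2.74), the alpha-glucuronidase gene gh67-1 (3.47) and gh43-6 (1.54) rose. The genes gh11-2, gh11-1, gh67-1 and gh43-6 were chosen after values were seen.

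The esterase and pectin genes also contained rises. The feruloyl esterase gene fea-1, whose product cuts ferulic acid from hemicellulose, stood at 106 and 89.3 CPM at day 1 and 2031 and 2679 CPM at day 3. Its day 3 values lay far above its day 1 values (4.59 ± 0.181, edgeR adjusted p = 2.11e-12), and the WT value was -0.75. Of 9 pectin enzymes tested, 5 rose and 2 fell (median log2 fold change 0.38). The pectate lyase gene ply-2 rose from 143 to 331 CPM (1.21 ± 0.151) and the galactanase gene gh53-1 rose by 0.67, while the polygalacturonase genes gh28-1 (-1.28) and gh28-2 (-0.52) fell. Leaving out replicate 2 of day 1 or of day 3 left 3 pectin genes higher.

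The intracellular and extracellular glucosidases did not move as a group. Of 9 tested, 4 rose and 4 fell (median log2 fold change 0.06), beside 35.6% and 37% of all genes. The beta-glucosidase gene gh3-4, whose product splits cellobiose, rose from 1444 and 1233.8 to 2543 and 2985 CPM (1.05 ± 0.105), and gh3-1 rose from 4.79 to 15.6 CPM (1.70). Those that fell were led by gh3-3, at 987 and 917 CPM at day 1 and 94.2 and 95.1 CPM at day 3 (-3.33 ± 0.0833). Its days did not overlap. The beta-glucosidase gene gh1-1 fell from 3506 to 1011 CPM (-1.79 ± 0.116).

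Sugar transporters gave 11 higher and 11 lower of 28 tested (median log2 fold change 0.00), near the shares of all genes, 35.6% and 37%. The cellodextrin transporter genes cdt-1 and cdt-2, which carry the soluble products of cellulase action into the cell, did not pass the test. In log2 fold change they stood at -0.01 ± 0.108 (adjusted p = 0.963) and 0.18 ± 0.114 (0.173). With library totals cdt-2 passed (adjusted p = 0.0154), and it passed in a fit of the 4 mutant libraries alone (0.0457). Genes annotated as an L-fucose permease, NCU05897, and as a high affinity glucose transporter, NCU05627, fell from 1059.7 to 112 CPM and from 153 to 7.97 CPM (-3.24 and -4.26). Low genes annotated as sugar transporter 4, NCU07054, and as a maltose permease, NCU01868, rose by 3.16 and 2.23.

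The regulators of these enzymes changed by less than 2-fold. Of 11 tested, 7 rose and 3 fell (median log2 fold change 0.31), and 0 changed by at least 2-fold. In WT 7 rose and 4 fell (median 0.35), and the step difference was above 0 for 3 members and below 0 for 6. The activator gene clr-2 stood at 406 and 292 CPM at day 1 and 581 and 673 CPM at day 3 and rose (0.85 ± 0.144, edgeR adjusted p = 5.99e-05). The repressor gene cre-1 stood at 112 and 182 CPM at day 1 and 269 and 288 CPM at day 3 and rose as well (0.92 ± 0.185, adjusted p = 0.000283). For both genes the day 3 libraries lay above the day 1 libraries, and the 2 day 1 libraries differed from each other by more than the 2 day 3 libraries did. The step difference of cre-1 was 1.44 and passed the test, while that of clr-2 passed only under some of the alternatives. Smaller rises were those of clr-1 (0.31 ± 0.0736) and of the hemicellulase activator gene xlr-1 (0.45 ± 0.0751). The glucose signalling regulator gene col-26 fell (-0.59 ± 0.0732), as did rca-1 (-0.70 ± 0.104). A fall of vib-1 (-0.23 ± 0.0743) was lost with library totals (adjusted p = 0.128), in a fit of the 4 mutant libraries alone (0.0605), and without replicate 1 of day 1 (0.187) or of day 3 (0.142).

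Copper and iron uptake genes held the 2 steepest rises among genes with an informative name and a mean of at least 20 CPM. Of 13 tested, 9 rose and 3 fell (median log2 fold change 1.30), and all 9 that rose did so by at least 2-fold. The copper transporter gene tcu-1, a plasma membrane importer of the Ctr family, had 194 and 228 reads at day 1 and 151950 and 178285 at day 3, or 12.5 and 13.1 CPM at day 1 and 7524 and 8569 CPM at day 3. That was a log2 fold change of 9.29 ± 0.260 (edgeR adjusted p = 5.04e-14), against 1.43 in WT, and the difference between the steps was 7.86 (adjusted p = 2.16e-11). By RPKM it moved from rank 6085 to rank 12 of the genes. The gene annotated as a ferric reductase, NCU00829, stood at 42.7 and 41.1 CPM at day 1 and 7806 and 8490.2 CPM at day 3 (7.604 ± 0.227), and WT had 0.68. These 2 genes lie next to each other on chromosome I in the order of the reference annotation. The genes on either side, scp and NCU00828, had log2 fold changes of 0.44 and -0.71. Without the strand of counting, reads of adjoining genes cannot be fully told apart.

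Rises of the other uptake genes were smaller. Chosen after values were seen, the copper transporter gene tcu-3 had 35.6 and 33.3 CPM at day 1 and 519.9 and 515 CPM at day 3 (3.91 ± 0.0932). Genes of siderophores, the secreted chelators of iron, included NCU06062, annotated as a siderophore biosynthesis protein (3.05 ± 0.0976), and the iron permease gene trm-51 rose by 1.13. Both NCU06062 and trm-51 were chosen after values were seen. The siderophore repressor gene sre fell (-0.36 ± 0.0798). Of the 3 falls in the list, 1 was by at least 2-fold, in a member not named here (-3.60). A small fall of a further ferric reductase gene, NCU00023 (-0.21 ± 0.0662), was lost with library totals (adjusted p = 0.158) and without replicate 1 of day 1 (0.0578) or of day 3 (0.168). The list as a whole took 0.102 and 0.102% of reads at day 1 and 1.78 and 1.89% at day 3, most of it from tcu-1 and NCU00829.

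The superoxide dismutase genes sod-2 and sod-1 moved in opposite directions. The gene sod-2 stood at 101 and 98.6 CPM at day 1 and 2292 and 2497 CPM at day 3 (4.58 ± 0.151, edgeR adjusted p = 2.74e-13), and WT had -0.39. The copper/zinc superoxide dismutase gene sod-1 stood at 275 and 268 CPM at day 1 and 84.7 and 73.8 CPM at day 3 and fell (-1.78 ± 0.0977), and WT had -1.70. The genes on either side of sod-2 on chromosome V, NCU01212 and NCU01214, rose with it. Without the strand of counting, their reads and those of sod-2 cannot be fully told apart. NCU01212, with no informative name, had 0 reads in both day 1 libraries and 81.7 and 101 CPM at day 3, at least 498-fold higher against a floor of 3 reads per library. NCU01214 had 2.97 and 3.05 CPM at day 1 and 80.8 and 81.2 CPM at day 3 (4.75 ± 0.164) and was chosen after values were seen. Over the oxidant defence list, the test gave 3 higher and 3 lower of 10 tested, beside 35.6% and 37% of all genes. The median log2 fold change of the list was -0.08, and its sign turned with library totals. The catalase genes cat-1 (1.29) and cat-2 (1.16; chosen after values were seen) rose, and the cytochrome c peroxidase gene ccp-1 fell (-1.54 ± 0.0846). Of 6 laccases and multicopper oxidases, 5 rose and 0 fell, led by NCU09023 (2.05) and NCU05113 (1.65), and 3 rose without replicate 2 of day 1 or replicate 1 of day 3.

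**Figure D3:**
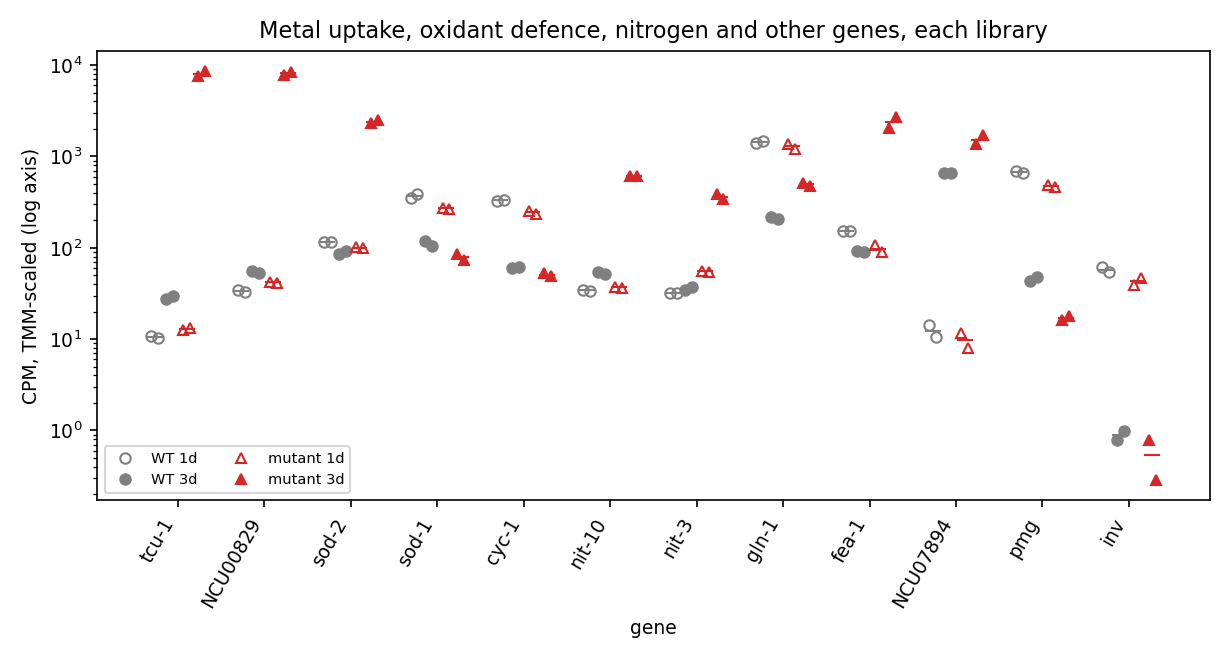
CPM (log axis) of 12 genes in each library at day 1 (open) and day 3 (filled), WT as grey circles and mutant as red triangles; short lines are means of 2 libraries. The filled red triangles of tcu-1 and NCU00829 lie between 7524 and 8569 CPM, above the 3 other groups, and those of sod-2, nit-10 and fea-1 also lie above all other libraries.

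Genes of nitrate uptake and reduction rose while some genes of glutamate and glutamine metabolism fell. Of 20 tested, 11 rose and 6 fell (median log2 fold change 0.43). The nitrate transporter gene nit-10 stood at 37.6 and 36.4 CPM at day 1 and 608 and 613 CPM at day 3 (4.05 ± 0.103, edgeR adjusted p = 1.45e-14). The nitrate reductase gene nit-3 stood at 56.0 and 54.4 CPM at day 1 and 383 and 339 CPM at day 3 (2.71 ± 0.125). The days were separated for both, and in WT the values were 0.62 and 0.16. The nitrite reductase gene nit-6 (1.57) and the ammonium transporter gene tam-1 (1.27), chosen after values were seen, also rose. The glutamine synthetase gene gln-1 fell from 1297 to 495 CPM (-1.39 ± 0.0969), and the NAD-specific glutamate dehydrogenase gene gdh-1 fell from 434 to 159 CPM (-1.45 ± 0.0798). The regulator gene nit-2 (-0.89) and the NADP-linked glutamate dehydrogenase gene am (-0.89), likewise chosen after values were seen, fell.

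Transporters of amino acids and sulfate included some of the largest changes. Of 23 amino acid transporters, 12 rose and 11 fell, beside 35.6% and 37% of all genes. The general amino acid permease gene pmg stood at 486 and 459 CPM at day 1 and 16.4 and 17.9 CPM at day 3 and fell (-4.79 ± 0.0840, edgeR adjusted p = 2.70e-16), and the neutral amino acid permease gene mtr fell from 15.9 to 4.32 CPM (-1.89). Against these, the gene annotated as oligopeptide transporter 2, NCU07894, stood at 11.7 and 8.05 CPM at day 1 and 1353 and 1708 CPM at day 3 (7.28 ± 0.196), with 5.73 in WT. The sulfate permease genes cys-13 and cys-14 fell from 29.1 to 1.98 CPM and from 208 to 36.9 CPM (-3.88 ± 0.147 and -2.49 ± 0.124). A phosphate transporter gene, NCU07375, fell from 143 to 15.7 CPM (-3.18), and the acid phosphatase gene pho-3 rose from 15.4 to 43.5 CPM (1.49).

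Most ribosomal protein, ribosome biogenesis and translation factor genes fell. Of 80 cytosolic ribosomal protein genes tested, 77 fell and 2 rose, 58 fell by at least 2-fold, and the median log2 fold change was -1.19. Their share of reads went from 11.2 and 10.9% at day 1 to 5.17 and 5.00% at day 3. The steepest falls by the naming rule were those of crp-26 (-1.89 ± 0.0777), a small-subunit gene that went from 1486 to 399.9 CPM, and crp-71 (-1.85 ± 0.103), for an acidic protein of the large subunit, from 3162 to 877 CPM. The members that rose, crp-73 (0.57) and crp-79 (0.40), are annotated as S30 and as a ubiquitin fusion protein. In WT the list fell further, with a median of -2.09, and the step difference was above 0 for 77 members and below 0 for 2. Mitochondrial ribosomal proteins, with 51 lower and 0 higher of 54 (median -0.92), followed the same direction, with 1 higher under library totals, DESeq2 size factors or without replicate 1 of day 3. Of 52 ribosome biogenesis genes 47 fell and 0 rose (median -1.05), among them ipi-1, listed as NCU09094, from 24.4 to 3.05 CPM (-2.999 ± 0.151), and the RNA polymerase subunit gene rpo-17 from 22.5 to 3.32 CPM (-2.76). The WT median of the ribosome biogenesis list was -0.96. Translation factors, at 2 higher and 26 lower of 32 tested (median log2 fold change -0.53), included the elongation factor gene eef3, which fell from 1470.5 to 563 CPM (-1.39 ± 0.0988), and the cap-binding factor gene NCU03717, which rose from 139.8 to 491 CPM (1.81). Aminoacyl-tRNA synthetases, which charge tRNAs for translation, gave 4 higher and 17 lower of 37 tested (median log2 fold change -0.15), beside 37% lower among all genes tested; with library totals their median was -0.04. The lysyl-tRNA synthetase gene NCU00931 fell (-1.81) and the aspartyl-tRNA synthetase gene NCU07082 rose (2.02). The abundant elongation factor gene tef-1 did not pass the test (-0.14 ± 0.0790, adjusted p = 0.122).

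**Figure D4:**
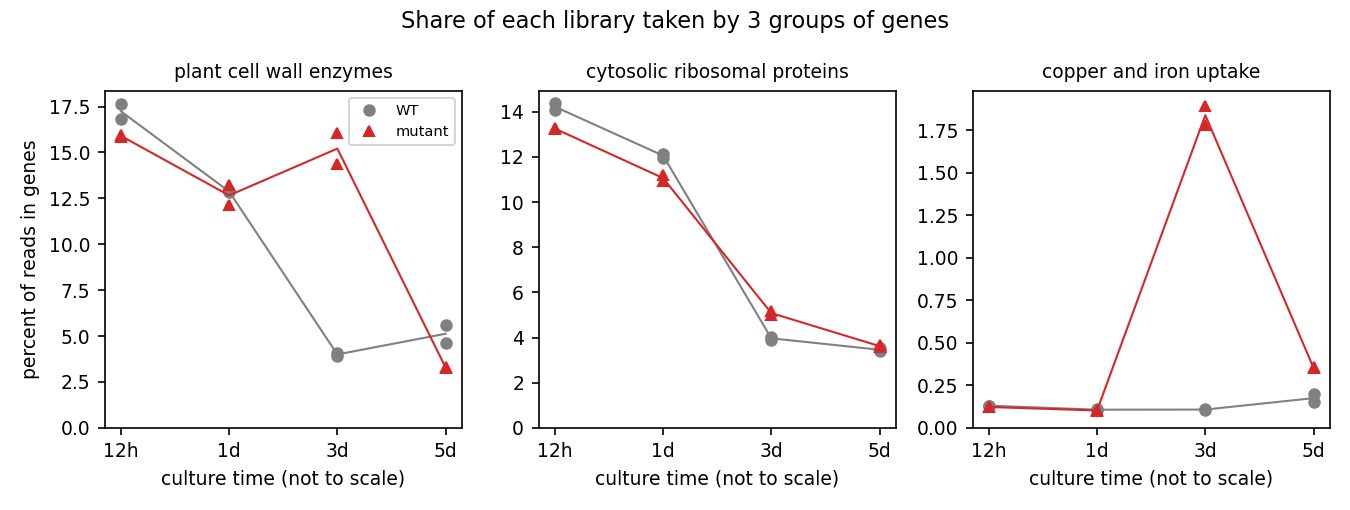
Percent of reads in genes taken by 69 plant cell wall enzyme genes of 5 lists, by 80 cytosolic ribosomal protein genes and by 13 copper and iron uptake genes in each library of WT (grey circles) and mutant (red triangles) at 12 h and at days 1, 3 and 5; lines join the means of 2 libraries. In the mutant the enzyme share was 12.7% at day 1, 15.2% at day 3 and 3.29% at day 5, while in WT it was 12.9% at day 1 and 3.997% at day 3, and the copper and iron share peaked in the mutant at day 3.

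Most genes of amino acid synthesis, respiration, the TCA cycle, lipid synthesis and DNA replication fell as well. Apart from the histone and replication list, the WT medians of these lists lay further below 0. They were -1.71 for amino acid biosynthesis, -1.12 for the respiratory chain, -1.05 for the TCA cycle and -1.47 for fatty acid and sterol synthesis. Of 74 amino acid biosynthesis genes tested, 3 rose and 66 fell (median log2 fold change -0.90), and 5 rose without replicate 1 of day 1. The branched-chain aminotransferase genes ilv-6, from 171 to 36.1 CPM (-2.24 ± 0.0947), and val-1, from 44.7 to 8.91 CPM (-2.32 ± 0.117), led the falls, and the gene annotated as cysteine synthase B, cys-19, rose from 0.366 to 17.0 CPM (5.52). The respiratory chain and ATP synthase list gave 2 higher and 47 lower of 58 tested (median log2 fold change -0.50). The ATP synthase subunit 9 gene oli stood at 1533 and 1588 CPM at day 1 and 266 and 269 CPM at day 3 (-2.54 ± 0.0662) and the cytochrome c gene cyc-1 fell from 243 to 50.9 CPM (-2.26 ± 0.0876). A rise of nuo6.6 (0.25 ± 0.0646) in that list was lost without replicate 2 of day 1 (adjusted p = 0.0523). The TCA cycle gave 2 higher and 12 lower of 17 tested (median log2 fold change -0.36), and fatty acid and sterol synthesis 1 higher and 16 lower of 22 tested (median log2 fold change -0.89). Glycolysis gave 5 higher and 4 lower of 16 tested (median log2 fold change -0.04), beside 35.6% and 37% of all genes. Its median was 0.06 with library totals. The hexokinase gene NCU04728 rose by 1.62 and the phosphoglycerate mutase gene emp-6 fell (-0.65). The sterol genes erg-1 and erg-8 fell from 125 to 27.6 CPM and from 170.3 to 43.4 CPM (-2.17 and -1.97). Histones and DNA replication gave 0 higher and 28 lower of 32 tested (median log2 fold change -0.89), with the histone gene hH4-1 from 2266 to 814 CPM (-1.48) and the sliding clamp gene pcn from 115 to 43.8 CPM (-1.40). The median of the histone and replication list was lower than the WT median of -0.40, and the step difference was below 0 for 18 members and above 0 for 2. Cytoskeleton and hyphal growth genes gave 3 higher and 18 lower of 33 tested (median log2 fold change -0.21), and 7 higher and 12 lower with library totals.

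Most proteasome and secretory pathway genes fell. In WT the medians of these 2 lists were lower than in the mutant, at -0.91 and -0.92. The proteasome list gave 0 higher and 32 lower of 34 tested (median log2 fold change -0.53), and its largest named falls were those of rpn-9 (-1.19) and rpn-2 (-1.06). The ER folding and secretory pathway list gave 2 higher and 40 lower of 49 tested (median log2 fold change -0.41), and the ER chaperone gene grp78 fell from 1913 to 983 CPM (-0.96 ± 0.0688). With library totals 4 of this list rose. Heat shock proteins gave 1 higher and 8 lower of 14 tested (median log2 fold change -0.48), and 2 higher with library totals. The chaperone genes hsp60 and hsp70-5 fell from 399.7 to 120.2 CPM and from 515 to 194 CPM (-1.73 and -1.41), and NCU07232, annotated as heat shock protein 30, rose from 2.63 to 10.2 CPM (1.93). Most autophagy genes rose. Of 10 tested, 8 rose and 0 fell (median 0.77), led by NCU04662, annotated as autophagy protein 5 (1.69), and by apg-1, the autophagy kinase gene (1.31). The membrane marker gene atg-8, chosen after values were seen, rose by 1.13. The WT median for autophagy was 0.72. Vacuolar ATPase genes, which acidify the vacuole, gave 8 higher and 2 lower of 14, led by vma-8 (0.53), and the fall of vma-3 (-0.15 ± 0.0633) was lost under each of the alternatives except the fit without a low-count filter.

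Cell wall genes included large falls and smaller rises. Of 63 tested, 20 rose and 29 fell (median log2 fold change -0.15), beside 35.6% and 37% of all genes. The chitinase gene gh18-6 fell from 487 to 42.3 CPM (-3.52 ± 0.0884) and the gene of anchored cell wall protein 12, acw-12, fell from 285 to 28.2 CPM (-3.34 ± 0.0984). The glucanase gene gh16-3 and the glucan-modifying gene gel-1 rose by 3.03 and 2.04. A LysM domain gene, NCU05319, of a class that binds chitin, fell from 317 to 15.8 CPM (-4.33 ± 0.0894). The invertase gene inv, for the enzyme that splits sucrose, stood at 38.7 and 46.9 CPM at day 1 and 0.792 and 0.288 CPM at day 3 and showed the largest fall by the naming rule (-6.30 ± 0.253, edgeR adjusted p = 2.49e-12), and WT had -6.03. A fatty acid desaturase gene, NCU09497, fell from 108 to 3.53 CPM (-4.93 ± 0.155). NCU05309, annotated as a Cut9 interacting protein, stood at 144 and 247 CPM at day 1 and 19.3 and 18.2 CPM at day 3 (-3.38 ± 0.177), with the day 1 libraries apart.

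Among other large rises, the agmatinase gene NCU01348 went from 0.736 to 56.6 CPM (6.21 ± 0.221) and a gene annotated as an alpha-methylacyl-CoA racemase, NCU00052, from 4.31 to 134 CPM (4.95). The UPF0499 protein gene NCU07353 rose from 7.35 to 290.1 CPM (5.31), against -0.37 in WT. NCU05094, a short chain dehydrogenase gene, rose by 4.79 and the inositol transporter gene NCU07199 by 4.09. In WT, NCU01348 (3.25), NCU00052 (4.05), NCU05094 (3.12) and NCU07199 (3.56) rose as well. Cytochrome P450 genes gave 16 higher and 4 lower of 25 tested (median log2 fold change 0.78), led by NCU10344 from 1.38 to 34.7 CPM. In WT this list had a median of 0.64, and NCU10344 rose by 5.45. Genes with no informative name included NCU09650, with 8 reads at day 1 and 6035 at day 3 over both libraries, a ratio of 605 (95% interval 307 to 1402, counting error only), and NCU02884, with 5 and 1765 reads and a ratio of 283 (121 to 873). In WT, NCU09650 rose by 12.07, to a mean of 4600 CPM at day 3 against 147 CPM in the mutant. NCU02884 did not pass the test in WT (0.42). Of the 1564 genes that rose by at least 2-fold 455 (29.1%) had an informative name, against 625 of the 918 (68.1%) that fell that far. The share over all genes tested was not counted, so neither share can be called high or low.

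Transcripts of conidiation and sexual development genes were present in these libraries, which are labelled mycelia. The conidiation list gave 8 higher and 4 lower of 14 tested (median log2 fold change 0.40), with 0.119 and 0.125% of reads at day 1 and 0.242 and 0.246% at day 3. Of its defining genes, con-8 rose from 25.2 to 251 CPM (3.31), the rodlet gene eas from 2.53 to 23.1 CPM (3.19 ± 0.405), con-10 from 68.7 to 149.6 CPM (1.12), and fl by 0.46, a call lost without replicate 2 of day 3 (adjusted p = 0.0746). The fifth, con-6, stood at 0.710 and 0.460 CPM at day 1 and 0.545 and 0.721 CPM at day 3 (adjusted p = 0.857). In WT the conidiation share went from 0.142 and 0.127% to 0.502 and 0.533%. Sexual development genes gave 7 higher and 4 lower of 12 (2 lower with library totals), with 0.122 and 0.120% and 0.146 and 0.146% of reads. Of its defining genes, poi-2 rose from 3.56 to 8.01 CPM (1.17) and asd-1, also a pectin gene, rose by 0.39. The falls in the sexual development list reached -0.90 and the rises 6.83. That largest rise was of app, chosen after values were seen, with 0 reads at day 1 and 20 and 9 at day 3. By RPKM the sexual tissue marker fsd-1 moved up, from rank 3939 to 1513. The markers asd-4 and pp-1 moved down, from rank 4040 to 5592 and from rank 1098 to 1439. The pheromone gene mfa-1 rose (1.80 ± 0.134), at 1493 and 1496 CPM at day 1 and 4432 and 5956 CPM at day 3, and the receptor gene pre-2 fell (-0.72 ± 0.0968). The part of these markers in the other changes was not tested.

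Set against the WT step, the mutant step went the same way for most genes that changed by at least 2-fold. In WT 7099 of the 8983 genes (79%) changed, 3765 (41.9%) up and 3334 (37.1%) down. Of the 1564 genes that rose by at least 2-fold in the mutant, 1315 (84.1%) also rose in WT and 78 fell. Of the 918 that fell that far, 804 (87.6%) also fell in WT and 36 rose. Across the 8983 genes, the log2 fold changes of the strains had a Pearson r of 0.70 and a Spearman rho of 0.73, a description of genes that share a normalization and are not independent replicates. The steps themselves differed for 4791 genes (53.3%), 2357 (26.2%) above and 2434 (27.1%) below 0, and 1620 (18%) by at least 2-fold. With library totals the split became 1212 above and 4492 below (21.2% above against 49.2%), with a median of -0.46 against -0.08.

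Most cellulase and metal uptake genes went further up, or less far down, in the mutant than in WT. Of 11 cellulases, 9 had a step difference above 0 and 0 below, and of 13 copper and iron uptake genes 9 were above and 1 below, against 26.2% of all genes above. This was not particular to these 2 lists, since some lists that fell in both strains had it too. Of 58 respiratory chain and ATP synthase genes 53 were above 0 and 0 below, and of 74 amino acid biosynthesis genes 60 were above and 4 below. Other lists that fell in both strains did not have it. Among 52 ribosome biogenesis genes 6 were above 0 and 14 below. For the 32 histone and DNA replication genes it was 2 above and 18 below. Among genes with an informative name and a mean of at least 20 CPM over the 8 libraries, the largest differences above 0 were those of tcu-1 (7.86), the secretory phospholipase A2 gene NCU06650 (7.22), NCU00829 (6.93), NCU07353 (5.68) and fea-1 (5.34). NCU06650 stood at 77.4 and 62.0 CPM at day 1 and 229 and 261 CPM at day 3, a rise of 1.81 ± 0.109, while WT fell by 5.40. On the other side, the sugar transporter gene NCU00821 stood at 226 and 233 CPM at day 1 and 56.4 and 63.9 CPM at day 3, a fall (-1.93 ± 0.120), with a rise of 3.53 in WT. In the same set of genes the largest step differences below 0 were those of NCU00821 (-5.46), the ABC transporter gene NCU00290 (-4.58), the GH16 gene gh16-2 (-4.41), the G-protein coupled receptor gene gpr-1 (-4.31) and the dynamin family gene NCU04935 (-3.88). The mutant rise of NCU00290 (0.44 ± 0.177) was lost in a DESeq2 Wald test and without replicate 1 of day 1 or replicate 2 of day 3.

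**Figure D5:**
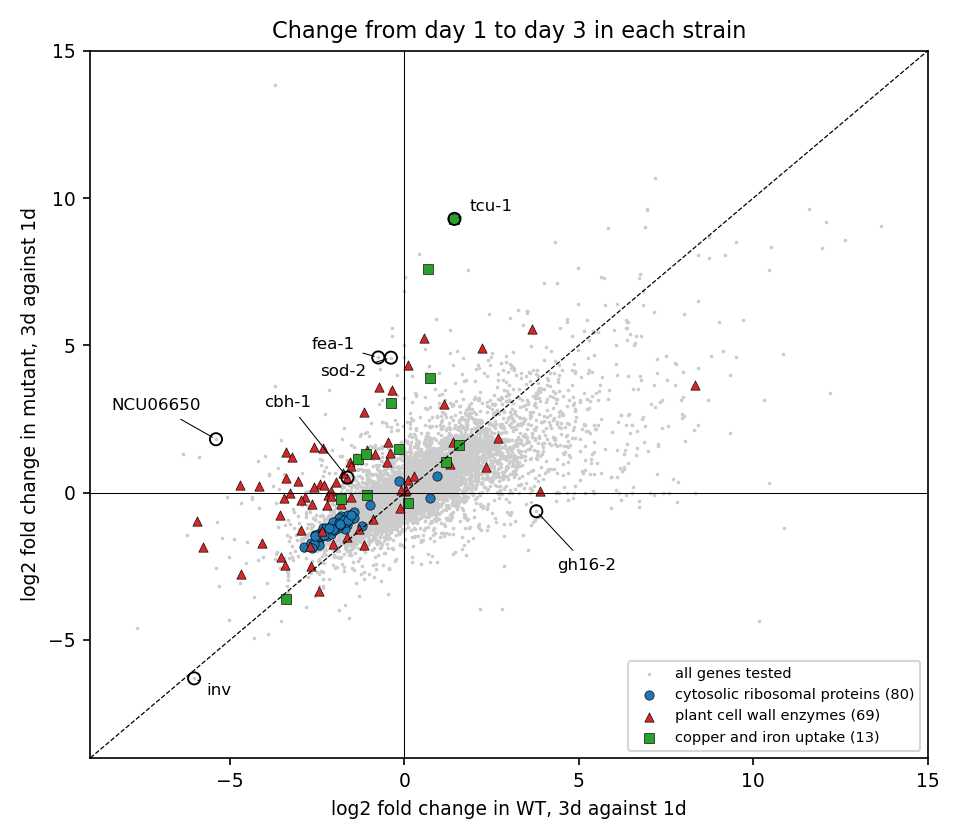
Log2 fold change from day 1 to day 3 of each tested gene in WT (horizontal) and in the mutant (vertical); grey points are all 8983 genes, coloured symbols are 3 groups of genes, and the dashed line marks equal change. Nearly all ribosomal protein genes lie below 0 in both strains, most plant cell wall enzyme genes lie above the line, and tcu-1, sod-2 and fea-1 lie far above it.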

How the data were processed

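The authors deposited, per the file headers, 1 table with read counts per gene and RPKM values (reads scaled by gene length and library total) for 16 libraries; all 32 value columns were matched to samples by name. Per the submitters' processing notes, TopHat2 (2.0.8b) and HTSeq (0.5.4p3) were named; genome build and counting strand were not given in the sources used here, so values of genes that overlap, lie antisense to each other or have near-identical copies are uncertain. The deposited RPKM values were checked against the counts (146267 values within a relative tolerance of 0.001) and serve only to rank levels. Entries naming no gene held 6.86% of 1 library and 4.43% of another and were left out. Names came from the table and from a reference table (assembly NC12; 9729 of the loci matched).

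With R (4.3.3) and edgeR (4.0.16, with limma 3.58.1), a quasi-likelihood model with 1 mean per group was fitted to 16 libraries after filterByExpr (minimum count 10, 747 genes removed) and TMM scaling (factors 0.840 to 1.25; common biological coefficient of variation 0.0685; 8 residual degrees of freedom). Contrasts were mutant day 3 minus day 1, the same in WT, and their difference. Adjusted p-values followed Benjamini and Hochberg over 8983 genes, with 0.05 as threshold. The procedure was tested on simulated data, in which all groups shared the same means apart from a small set of genes. Scaling where most genes change was therefore not tested. SE is the absolute log2 fold change over the square root of F. Intervals cover counting error only. Summaries and figures used Python (3.11.15), pandas (2.3.3), NumPy (2.4.6), SciPy (1.17.1) and matplotlib (3.10.9).

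Genes named are the 12 largest rises and falls with a mean of at least 20 CPM and an informative name, 3 each without one, 2 each per list at 5 CPM or more, the 10 most abundant at day 3, a fixed set, and the 5 largest step differences each way (204 genes). Others are marked as chosen after their values were seen, or are defining genes of conidiation or sexual development, neighbours of named genes or mating type genes. The members and lists were chosen with earlier results of these data known. List members gh18-1, cyp450-16 and NCU08180 had too few reads to be tested. Same-numbered replicates of mutant days 1 and 3 deviated with r = 0.0744 over 7626 genes, so the numbers were not taken to pair samples. Alternatives were library totals, DESeq2 (1.42.0) size factors and Wald test, no filter, a replicate block, only the libraries compared, and leaving out each library.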

Additional observations from a re-analysis of the deposited data

Results flagged for a closer look

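A test of the difference between the strains' steps was the ground for each value here: 4791 of 8983 genes differed, and the genes here, all named by the rule for naming genes, either had the largest differences or passed the test in opposite directions in the strains. Values are log2 differences, mutant step minus WT step. For gh7-2, gh61-5, cfp, nuo6.6 and NCU00290 the rise in the mutant itself was not called under some of the alternatives. The strains also differ in mating type transcripts, and with library totals the median of all genes was -0.46, against -0.08 with TMM.

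Enzymes of plant cell wall degradation among them that rose in the mutant and fell in WT were ply-2 (4.43), ce5-3 (4.33), gh10-1 (3.85), gh7-2 (2.71), gh61-5 (2.56), gh53-1 (2.44), gh61-13 (2.43), cbh-1 (2.14), gh7-1 (1.76) and gh3-4 (1.53). The feruloyl esterase gene fea-1 had 5.34. Metal uptake and oxidant defence were represented by tcu-1 (7.86), NCU00829 (6.93), sod-2 (4.97) and the laccase gene NCU09023 (3.13).

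Metabolic genes with values above 0 were cfp (4.47), for pyruvate decarboxylase, acu-6 (3.60), for phosphoenolpyruvate carboxykinase, the alternative oxidase genes aod-1 (3.33) and aod-3 (2.13), the malate dehydrogenase gene tca-16 (1.11), the sterol gene erg-15 (1.46), nuo6.6 (0.54) and the acid phosphatase gene pho-3 (3.76). The remaining ones were NCU06650 (7.22), NCU07353 (5.68), the peptide synthetase gene NCU08441 (2.91), cre-1 (1.44) and crp-79 (0.56). With library totals the differences of nuo6.6 (0.157, adjusted p = 0.175) and crp-79 (0.178, adjusted p = 0.145) did not pass the test.

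Values below 0 belonged to NCU00821 (-5.46), NCU00290 (-4.58), gh16-2 (-4.41), gpr-1 (-4.31), NCU04935 (-3.88), rca-1 (-3.76), the polyketide synthase gene pks-3 (-3.73), pre-2 (-2.04) and cyp450-15 (-1.70).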

How the results depend on the processing

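The counts of changed genes in the mutant step stayed within 1.5 times under each alternative: 6432 with library totals, 6504 with DESeq2 size factors, 6507 of 9534 genes with no filter, 6059 in a fit of the 4 mutant libraries, 6326 with DESeq2's Wald test, and 5923 to 6149 with a library left out, against 6522. Those that rose ran from 3006 to 3032 and those that fell from 2917 to 3141 with a library left out, and were 3580 and 2852 with library totals. Of 224 single-gene values of the mutant step, 216 to 224 kept their direction and call under each alternative, and of 92 counts of list members 85 to 92 stayed within 1.5 times. With the replicate block 6488 genes changed, 3175 up and 3313 down, and the step difference gave 4732; of 224 single-gene results the block ended 1 call, that of vma-3 (adjusted p = 0.0539). Same-numbered libraries share only a number, with deviations correlated from -0.378 (WT day 3 with mutant day 5) to 0.109 over pairs of groups. The step difference ran from 4202 to 4686 genes with a library left out and the WT step from 6563 to 6684. With library totals the step differences of clr-1 (-0.30, adjusted p = 0.0135), cdt-2 (-0.35, 0.0339), tef-1 (-0.0906, 0.394) and vib-1 (-0.0164, 0.902) turned negative, while the median of all genes moved to -0.46. That of NCU05309 was -0.06, -0.39 without replicate 1 of mutant day 1 and 0.39 (adjusted p = 0.00791) without replicate 2, whose level of this gene stood above that of replicate 1. Depth limits the folds of genes with few reads at day 1, such as NCU02884 with 5 and NCU09650 with 8.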

Other observations

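Genes of fermentation, gluconeogenesis and respiration outside the main chain gave mixed values. The fermentation, gluconeogenesis and C2 list had 3 genes higher and 3 lower of 9 tested in the mutant, beside 35.6% and 37% of all genes. The gluconeogenic gene acu-6 stood at 69.5 and 45.3 CPM at day 1 and 205 and 196 CPM at day 3 (1.81 ± 0.199), and the acetyl-CoA synthetase gene acu-5 fell from 958 to 499 CPM (-0.94). The pyruvate decarboxylase gene cfp rose by 0.58, a call lost without replicate 1 of day 1 (adjusted p = 0.0624). The alternative oxidase gene aod-1 rose from 27.3 to 52.7 CPM (0.95), while nde-2, for an alternative NADH dehydrogenase, fell from 251 to 65.7 CPM (-1.94).

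Levels in the mutant before and after the step, which enter no comparison here, placed the day 3 values in the course of the culture. The gene tcu-1 had a mean of 34.9 CPM at 12 h and 1325 at day 5, and NCU00829 had 81.0 and 451. The corresponding means were 125 and 339 for sod-2, 49.7 and 148 for fea-1, 96.8 and 44.8 for nit-10, and 16.7 and 3389.97 for NCU07894. The cellulase gene cbh-1 had 26959 CPM at 12 h and 4989 at day 5.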
